A study of Mus musculus with 2 samples.

Results

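The Wnt genes described here encode secreted proteins: 2 ligands (Wnt4 and Wnt5a), 4 secreted frizzled-related proteins (Sfrp1, Sfrp2, Sfrp4 and Frzb), 2 members of the dickkopf family (Dkk2 and Dkk3) and 1 R-spondin (Rspo2). They are 9 of the 8251 genes on an Affymetrix U74A array and were chosen by symbol, with their levels in these arrays already known, so their values are a description and carry no test. Each gene had 1 probe set. The study compared 2 clones of mouse mesoangioblasts, D16 and D351, by their total RNA, on 1 array per clone. Mesoangioblasts are progenitors found along embryonic vessels, from which muscle, bone and other mesodermal tissue can form.

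Both groups share their origin and handling. The clones came from C57BL6 embryos of embryonic day 9.5, from the dorsal aorta, and neither carried a labelled allele or treatment. The aorta was kept as an explant for 5 days, and single cells were then cloned on growth-arrested embryonic fibroblasts in RPMI with 20% fetal calf serum and expanded on gelatin. Each group is a single clone on a single array, so a difference between clones and a difference between cultures or arrays cannot be told apart.

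Wnt proteins signal through Frizzled receptors, with the co-receptors LRP5 and LRP6 in the branch that stabilizes beta-catenin and with receptors such as ROR2 in other branches. Secreted frizzled-related proteins can bind Wnts outside the cell, dickkopf proteins of the classical type bind LRP5 and LRP6, and R-spondins protect Frizzled receptors from removal at the membrane. In the embryo, Wnt signals and their secreted modulators pattern the mesoderm and act in vascular, muscle and skeletal progenitors.

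Of the 9 genes, Sfrp1, Rspo2, Dkk3 and Sfrp4 had higher levels in D351, Sfrp2 and Wnt5a lay close to the limit of measurement, and Dkk2, Frzb and Wnt4 were below it in both clones. The limit used is a floor at an intensity of 17.4, the 40th percentile of the values after the arrays were scaled to a common median. No detection call was used here. Where 1 clone was below the floor, the ratio is only a lower bound, and where neither clone reached it no ratio is given. Genes that reached the floor are called measurable. Of the 9 genes, 4 were measurable in D16 and 6 in D351.

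Promoter windows of 300 bases, 250 before and 50 after the gene start, were found for 4 of the 9 genes (Sfrp2, Frzb, Dkk2 and Wnt4) in RefSeq on build GRCm38.p6. Sfrp1, Sfrp4, Dkk3, Rspo2 and Wnt5a had no entry. The windows of Sfrp2, Dkk2 and Wnt4 are shown because they hold widely different numbers of CpG, the dinucleotide that vertebrate methylation acts on, while all 3 genes were near or below the floor. They lie on the plus strand at chr3:83766071-83766370, chr3:132085042-132085341 and chr4:137277385-137277684, and capitals mark each CG and the TATA box letters TATAAA.
Sfrp2: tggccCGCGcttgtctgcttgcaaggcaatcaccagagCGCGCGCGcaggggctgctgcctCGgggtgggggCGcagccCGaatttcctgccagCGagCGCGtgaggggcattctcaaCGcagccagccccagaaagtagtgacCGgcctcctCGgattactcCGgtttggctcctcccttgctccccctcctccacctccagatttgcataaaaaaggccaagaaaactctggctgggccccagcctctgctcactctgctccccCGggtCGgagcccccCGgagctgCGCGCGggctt
Dkk2: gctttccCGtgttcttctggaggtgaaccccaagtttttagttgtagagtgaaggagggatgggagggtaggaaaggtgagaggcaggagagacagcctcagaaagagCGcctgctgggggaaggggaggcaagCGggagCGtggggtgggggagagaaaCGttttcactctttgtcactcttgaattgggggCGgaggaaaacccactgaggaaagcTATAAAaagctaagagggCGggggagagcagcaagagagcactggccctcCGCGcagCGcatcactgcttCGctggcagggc
Wnt4: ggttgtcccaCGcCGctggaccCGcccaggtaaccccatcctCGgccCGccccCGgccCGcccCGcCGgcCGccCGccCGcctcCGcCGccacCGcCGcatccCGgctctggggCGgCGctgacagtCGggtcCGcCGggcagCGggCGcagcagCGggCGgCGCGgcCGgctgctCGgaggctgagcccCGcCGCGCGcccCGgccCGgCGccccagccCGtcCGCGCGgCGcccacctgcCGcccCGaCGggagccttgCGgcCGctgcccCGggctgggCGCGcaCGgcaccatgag

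The window of Wnt4 held 51 CpG, more than 99.3% of the 32851 windows of the same length, whose median was 7. Sfrp2 held 22, Frzb 20 and Dkk2 11, each above that median. TATAAA was found on either strand in Dkk2 alone among the 4, and in 13.6% of all windows. The letters CTTTGAA or CTTTGAT, a core bound by TCF and LEF factors, were in 0 of the 4 windows and in 8.65% of all windows on either strand. The motifs searched do not overlap each other, and each count only describes these windows.

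Sfrp1 encodes a secreted frizzled-related protein that can bind Wnts and limit their access to receptors. It measured 21.9 in D16 and 367 in D351. The D16 level was 1.26 times the floor and the D351 level 21.1 times the floor, so the gene was barely measured in one clone and clearly in the other. The ratio was 16.8-fold, or 4.07 on the log2 scale, which ranked 9 among the 5202 genes measurable in both clones.

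Sfrp4, a second frizzled-related antagonist, was below the floor in D16 at 9.63 and reached 62.2 in D351. It was therefore at least 3.57-fold higher in D351. Sfrp2, a relative of Sfrp1 by sequence, went the other way by a small amount, with 25.8 in D16 and 19.0 in D351. That 1.36-fold difference, a log2 ratio of -0.44, was smaller than the spread between probe sets of the same gene. Frzb, an antagonist first studied in cartilage, measured 5.11 in D16 and 1.63 in D351, both below the floor. The frizzled-related genes thus differed among themselves, with 2 of the 4 at least 2-fold higher in D351, 1 near the floor in both clones and 1 below it.

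Dkk3 encodes a divergent dickkopf protein that lacks the usual LRP-binding activity of the family. It measured 21.8 in D16, 1.25 times the floor, and 85.6 in D351. The ratio was 3.92-fold, a log2 ratio of 1.97. Dkk2, which binds LRP5 and LRP6 and can block or weakly activate the pathway, measured 10.2 in D16 and 9.67 in D351 and has no ratio.

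Rspo2 encodes an R-spondin, a secreted enhancer of Wnt signals. It measured 19.0 in D16, 1.09 times the floor, and 316 in D351, 18.1 times the floor. The ratio was 16.7-fold, or 4.06 on the log2 scale, rank 10 among the genes measured in both clones. An enhancer and an antagonist, Rspo2 and Sfrp1, therefore had nearly the same ratio.

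Both ligands were faint. Wnt5a, a ligand best known for signalling without beta-catenin, was below the floor in D16 at 8.25 and at 21.3 in D351, 1.22 times the floor. It was at least 1.22-fold higher in D351. Wnt4, a ligand of kidney and gonad development, measured 3.83 in D16 and 2.75 in D351 and was below the floor in both.

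**Figure D1:**
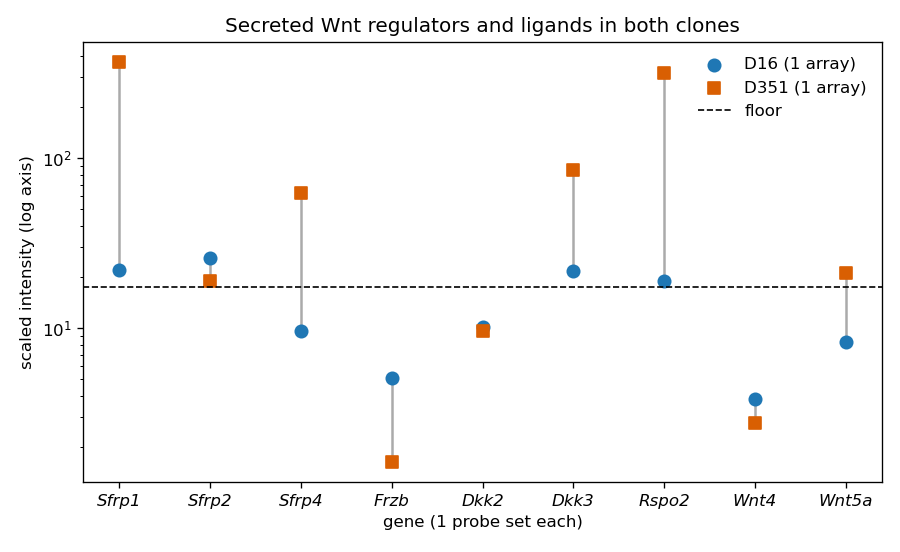
Scaled intensity on a log axis of the 9 genes in D16 (circles) and D351 (squares), 1 array each, joined by a line for each gene, with the floor of 17.4 dashed. Sfrp1 and Rspo2 lie near the floor in D16 and at 367 and 316 in D351; levels of different probe sets are not comparable with each other.

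The spread among probe sets that share a gene was the only part of the error of a ratio that could be measured, since neither clone had a second array. It compares probe sets on the same arrays and RNA, so variation between cultures, RNA preparations or arrays is not part of it. Over 808 genes with more than 1 probe set measurable in both clones, that spread was an SD of 0.52 in log2 ratio. It was also 0.52 in the third of these genes with the lowest levels (269 genes). The ratios of Sfrp1, Rspo2 and Dkk3 and the bound of Sfrp4 exceeded that spread, while the ratio of Sfrp2 did not. The bound of Wnt5a was under the spread, which does not show a ratio under it. A ratio above that spread can still lie within the variation between cultures or arrays, which was not measured. The order by log2 ratio was Sfrp1, Rspo2, Dkk3, Sfrp4 (a bound), Wnt5a (a bound) and Sfrp2. Neighbours in that order were separated by less than the spread for Sfrp1 and Rspo2, and for Dkk3 and the bound of Sfrp4. The spread is that of a single ratio and not of a difference between ratios, so the order of the other neighbours was not tested either.

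Of the 6 genes measurable in 1 or both clones, 4 passed 2-fold toward D351 and 0 toward D16. Among all 6101 such genes, 10.6% passed 2-fold toward D351 and 8.83% toward D16. The genes were chosen with this contrast known, so nothing is read from their share. Their median log2 ratio was 1.90, with bounds entered at their bound, against -0.03 for all genes. The same count of 4 was found with the arrays as deposited and after quantile, loess and hybridization control scaling. Scaling on the 9 hybridization controls raised the median log2 ratio of all genes from -0.03 to 0.34. Of all genes at least 2-fold apart, 82.9% were then higher in D351, against 54.5% in the scaling used here.

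**Figure D2:**
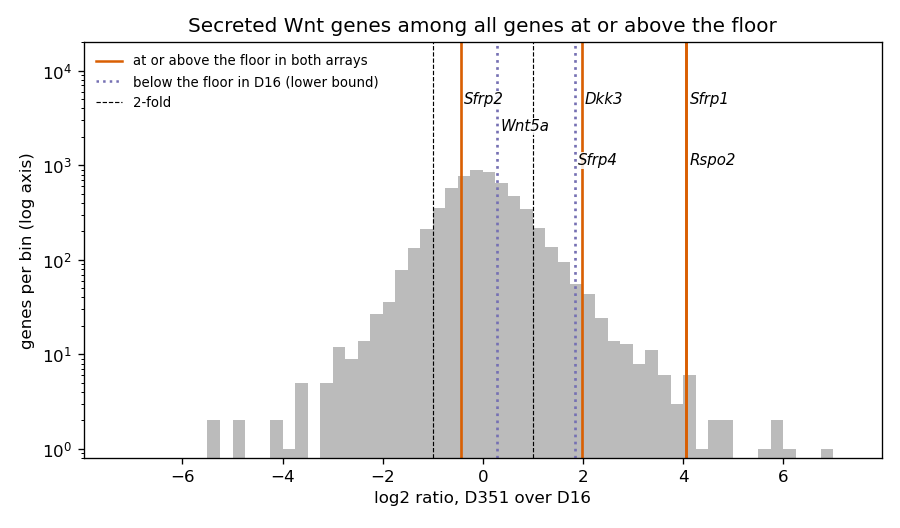
Number of genes (log axis) by log2 ratio of D351 over D16 for the 6101 genes measurable in 1 or both clones, with the 6 secreted Wnt genes that have a ratio as vertical lines. Sfrp1 and Rspo2 lie at 4.07 and 4.06 in the right tail; dotted lines (Sfrp4 and Wnt5a) are lower bounds and dashed lines mark 2-fold.

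As single-probe readings, the 3 genes whose pair of scaled log2 intensities was nearest to that of Sfrp1, by Euclidean distance over the 2 arrays, were the acute phase gene Saa3 (0.16), the extracellular glutathione peroxidase gene Gpx3 (0.26) and Rspo2 (0.30). Their ratios of D351 over D16 were 16.8-fold for Saa3 and 19.1-fold for Gpx3. A choice by nearness in both levels sets these ratios near that of Sfrp1. The nearest to Sfrp2 were Slc16a1, a monocarboxylate transporter gene (0.04), the troponin gene Tnnt1 (0.05) and the complement gene C2 (0.06). Intensities of different probe sets do not measure transcript amounts on a common scale, so these distances describe readings of the arrays and show no likeness in transcript level.

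Other genes of the pathway were taken from 7 lists by textbook role, which were written with earlier results of these data known. Of the 128 genes listed, 84 were on the array and 60 were measurable in 1 or both clones. Of the 60, 11 (18.3%) passed 2-fold toward D351 and 5 (8.33%) toward D16, against 10.6% and 8.83% of all genes. The counts of each list below stand beside the same shares of all genes. The median log2 ratio of the 60 was 0.06, against -0.03 for all genes.

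The other secreted ligands and modulators were mostly undetected. Of 16 on the array, 13 were below the floor in both clones, among them the antagonist gene Dkk1 and the enhancer gene Rspo1. Of the remaining 3, Wnt1 and Wnt10a lay within 2-fold. Wnt1 measured 50.6 in D16 and 36.4 in D351, and Wnt10a 29.6 and 27.2. Wnt3 reached the floor in D351 alone, at 17.6 against 6.19 in D16, so its ratio is only a lower bound.

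Wls encodes the carrier that brings Wnt proteins to the cell surface. It measured 286 in D16 and 1093 in D351, well above the floor in both clones, and was 3.83-fold higher in D351. It was the single gene of Wnt secretion on the array.

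Receptor genes had a median log2 ratio of 0.95 over 12 measured genes, with 5 (41.7%) past 2-fold toward D351 and 1 (8.33%) toward D16. The Frizzled gene Fzd2 measured 154 in D16 and 467 in D351, a 3.03-fold ratio. Fzd1 measured 11.1 in D16, below the floor, and 53.0 in D351, at least 3.05-fold higher. Ror2, a receptor for Wnt5a, measured 2.55 in D16, below the floor, and 49.97 in D351, at least 2.87-fold higher, but its other probe set was below the floor in both clones. Ptk7, a pseudokinase co-receptor of planar polarity, measured 35.4 and 89.8, a 2.54-fold ratio.

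The co-receptor and remaining receptor genes named next were picked after their values were seen. Lrp6, the target of classical dickkopf proteins, measured 191 in D16 and 464 in D351, a 2.43-fold ratio, while its other probe set was at 18.2 in D16 and below the floor in D351. Lrp5 was at 28.9 in D16 and below the floor in D351. Fzd4 was the receptor gene 2.43-fold higher in D16, at 191 and 78.7, by a probe set of a kind that can match other transcripts. Other probe sets of Fzd4 were below the floor in both clones. Of the genes for receptors that bind R-spondins, Lgr5 was below the floor in both clones, and Lgr4 and Lgr6 had no probe set here.

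Inside the cell the values were closer together. Of 14 measured components of the beta-catenin branch, 2 passed 2-fold toward D351 and 12 had a ratio or bound under 2-fold. The median log2 ratio was 0.19. Dvl1, which relays the signal from Frizzled, measured 93.9 in D16 and 214 in D351, a 2.28-fold ratio. Apc2, a relative of the tumour suppressor Apc, was at least 2.82-fold higher in D351 by one probe set and below the floor in both clones by another. Ctnnb1, the beta-catenin gene, named after its values were seen, measured 944 and 1044. Of 10 nuclear factors, 9 had a ratio or bound under 2-fold and the co-repressor gene Tle1 was 2.14-fold higher in D16, at 69.4 and 32.5. Tle4, named after its values were seen, was below the floor in D16 at 2.16 and at 22.5 in D351. Its bound of 1.29-fold does not show a ratio under 2-fold. The median of the nuclear factors was -0.09, and 0.30 under hybridization control scaling.

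Target and feedback genes went in both directions. Of 8 measured, Ccn5 (4.03-fold) and Ccn4 (3.27-fold), genes of secreted matricellular proteins, passed 2-fold toward D351. Ccn5 measured 59.9 in D16 and 241 in D351, and Ccn4 150 and 492. Plaur, the urokinase receptor gene, measured 140 in D16 and 47.8 in D351, 2.92-fold higher in D16. The growth regulator gene Myc measured 160 and 74.1, 2.16-fold higher in D16. These genes also respond to other pathways. Axin2, the feedback gene most often read as a sign of beta-catenin signalling, was below the floor in both clones, at 15.3 and 14.8. The median of this list was -0.70, against -0.31 under hybridization control scaling and -0.06 with a pseudocount and no floor, where undetected genes enter too.

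The planar polarity and calcium branch had 1 of 12 measured genes (8.33%) at least 2-fold apart in each direction, near the shares of all genes. Nfatc3, a calcium-regulated transcription factor gene, was at least 2.44-fold higher in D351, with its other probe set below the floor in both clones. Celsr2, a polarity cadherin gene, measured 73.9 in D16 and 27.6 in D351, 2.68-fold higher in D16. The other Celsr2 probe set was also below the floor in both clones. The list median was -0.15, and 0.15 under hybridization control scaling. The median of the other secreted genes likewise moved from -0.12 to 0.22 under that scaling.

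**Figure D3:**
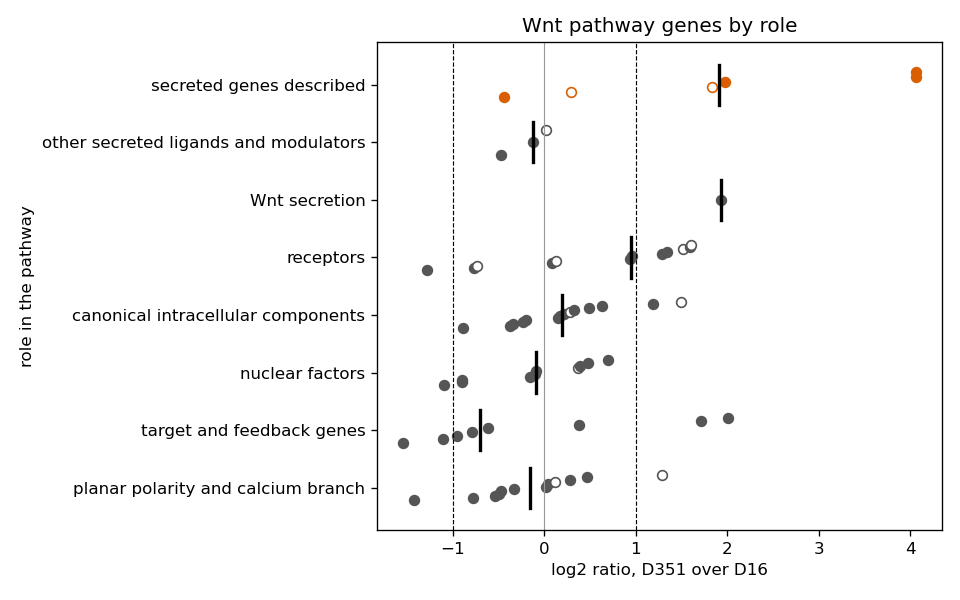
Log2 ratio of D351 over D16 for genes measurable in 1 or both clones, by role; open circles have 1 clone below the floor and are bounds, black bars are medians and dashed lines mark 2-fold. Sfrp1, Rspo2, Dkk3 and Sfrp4 are the 4 orange points right of 2-fold, and the receptors have a median of 0.95.

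The label of the cells was read against marker genes. Some markers of other cell types were also higher in D351, while others lay within 2-fold or were higher in D16. Of the 4 progenitor markers on the array, Thy1 measured 1534 in D16 and 1041 in D351, Cd34 measured 475 in D16 and was below the floor in D351, and Kit and Kdr were below the floor in both. All 7 fibroblast markers were measurable in both clones, with 4 past 2-fold toward D351 and 1 toward D16. Over all genes, 10.6% and 8.83% passed 2-fold in these directions. The 1 toward D16 was S100a4, at 1834 in D16 and 414 in D351, the largest ratio of the list at 4.42-fold. Other probe sets of Col3a1 were also past 2-fold toward D351. A second Col1a1 probe set had a log2 ratio of 0.42, and others had -0.62 for Col1a2 and -1.54 for Pdgfra. Of the 4 pericyte and smooth muscle markers on the array, Pdgfrb (3.62-fold) and Tagln (2.93-fold) were at least 2-fold higher in D351. Acta2 (1.79-fold) and Mcam (1.31-fold) lay within 2-fold. Fibroblasts served as feeders when the clones were started, and the part of these cells in the values was not tested. In RNA of whole cultures, fewer cells of a type and less RNA per cell cannot be told apart.

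Markers of unrelated cell types were faint, with exceptions. Of 5 endothelial markers, 4 were below the floor in both clones, and Pecam1 measured 30.8 in D16 and 20.3 in D351. Of 5 haematopoietic markers, Ptprc and Itgam were below the floor in both clones. Csf1r and Laptm5 lay within 2-fold, by probe sets that can match other transcripts. The other probe set of Laptm5 was below the floor in both clones. That of Csf1r reached it in D351 alone, at 21.2. Cd68, a macrophage gene, measured 3.73 in D16, below the floor, and 36.9 in D351, at least 2.12-fold higher there. That probe set can match other transcripts, and the other one of Cd68 was below the floor in both clones. Of 4 epithelial markers, 3 were below the floor in both, and Cdh1 measured 72.5 in D16 and 59.0 in D351. Of 3 skeletal muscle markers, Myod1 measured 41.7 in D16 and 44.7 in D351, and Myog was at 23.1 in D16 and below the floor in D351. Des measured 5.60 in D16, below the floor, and 41.0 in D351, at least 2.36-fold higher there. Of 3 neural markers, Sox2 was below the floor in both clones. Tubb3 measured 723 in D16 and 466 in D351 by a probe set that can match other transcripts. Its other probe set, of the same kind, was below the floor in D16 at 6.48 and at 49.0 in D351. Nes measured 28.6 in D16 and 100.3 in D351, 3.51-fold higher in D351, with its other probe set below the floor in both clones.

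The 4 genes higher in D351 did not depend on the processing to the same degree. Over all settings that gave a ratio, the log2 ratio of Sfrp1 ran from 2.79 to 4.46 and that of Rspo2 from 2.57 to 4.38. That of Dkk3 ran from 0.68 to 2.37 and that of Sfrp4 from 0.22 to 2.69. The lowest value of each of these 4 genes came with a floor at the 60th percentile (an intensity of 53.3). There all 4 were below the floor in D16, so these values are lower bounds. The bounds of Dkk3 and Sfrp4 were under 2-fold in that setting alone, which does not show ratios under 2-fold. Wnt5a ran from 0.26 to 1.37 and passed 2-fold with a floor at the 25th percentile (7.27), where its D16 level counts as measured. Sfrp2 ran from -0.49 to -0.05. Dkk2 entered with the lower floor, at a log2 ratio of -0.08.

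**Figure D4:**
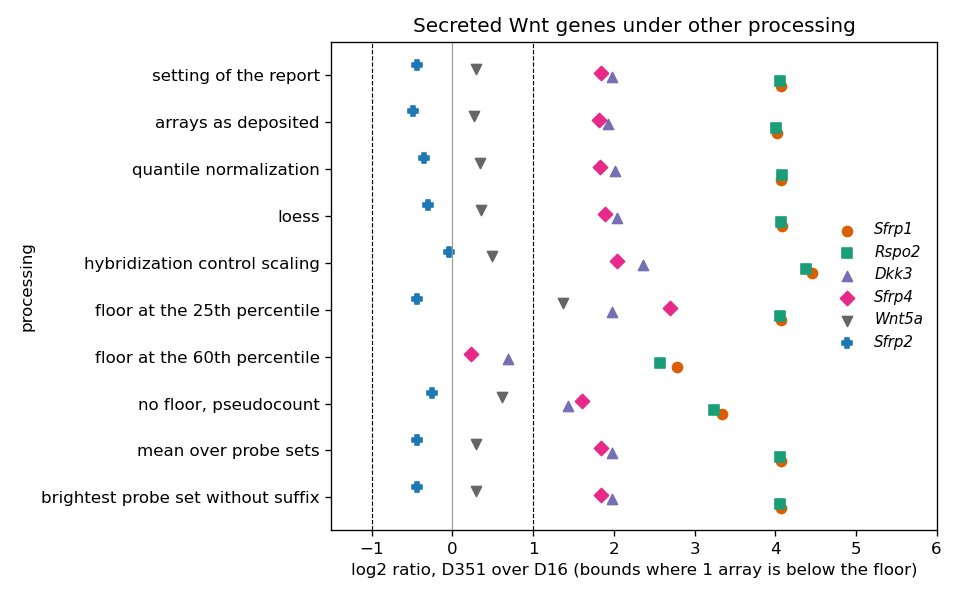
Log2 ratio of D351 over D16 of the 6 secreted Wnt genes that have a ratio, under the processing used in the report and 9 others (vertical axis), 1 array a clone. Sfrp1 and Rspo2 stay right of 2-fold (dashed) in every setting shown. Dkk3 and Sfrp4 lie left of it with the floor at the 60th percentile, where the values are lower bounds.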

How the data were processed

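The deposited table holds 1 linear intensity for each probe set and array, from U74A arrays per the labels. How they were scaled and background-corrected is not stated in the labels. Names came from the platform annotation and were updated by Entrez number to RefSeq (GRCm38.p6): 10833 of 12422 non-control probe sets had 1 symbol, 396 several and 1193 none, and the last kinds named no gene. That annotation is for version 2 of the array type, which the labels do not state. Arrays were scaled to a common median log2 level (factors 0.983 for D16 and 1.02 for D351). At or above the floor were 60.6% of probe sets in D16 and 59.4% in D351. Lower values were raised to the floor before log2 ratios were taken, and the brightest probe set stands for a gene. With 1 array a clone there was no test, and the number of arrays limits the precision.

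The 9 genes, the lists and the alternatives were chosen with earlier results of these data known. Named were all 9 genes with every probe set, from each pathway list up to 4 genes at least 2-fold apart with the largest ratios (otherwise the 2 brightest), the marker genes, and the 3 genes nearest in level to the highest and the lowest of the 9 measured in both clones. Genes outside this rule are marked or stand for a count. The functions were tested on simulated data. Python 3.11.15, numpy 2.4.6, pandas 2.3.3, statsmodels 0.14.6 and matplotlib 3.10.9 were used. Alternatives covered scaling, floor (or a pseudocount of 16), probe set choice and fold threshold.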

Additional observations from a re-analysis of the deposited data

How the results depend on the processing

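No paired analysis was possible because there is 1 array for each clone. No array could be left out either. The 4 secreted Wnt genes at least 2-fold higher in D351 became 2 with the floor at the 60th percentile, where Dkk3 and Sfrp4 have lower bounds under 2-fold. In the 7 pathway lists, the 11 genes higher in D351 became 6 with that floor and 5 at a threshold of 3-fold, and 15 with the floor at the 25th percentile, under hybridization control scaling and at 1.5-fold. The 5 higher in D16 became 3 with the floor at the 60th percentile and 7 with that at the 25th. They became 2 under hybridization control scaling, 14 at a threshold of 1.5-fold and 0 at 3-fold. Over all genes, 646 were higher in D351 and 539 in D16. These counts were 1214 and 250 under hybridization control scaling, 406 and 325 with the floor at the 60th percentile, and 857 and 852 with that at the 25th. They were 1287 and 1279 at 1.5-fold and 253 and 159 at 3-fold. Of 232 values of named genes under the alternatives, 212 moved by less than the probe set spread, 20 by more, and 0 of those at least 2-fold apart changed sign. The alternatives of probe set choice could not move these genes, as none had a second probe set at the floor. Genes below the floor at the 60th percentile in both clones, such as Wnt5a and Sfrp2, dropped out uncounted. The share of 212 is therefore no measure of stability. Levels near the floor limit the size of the ratios of Sfrp1, Rspo2 and Dkk3.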

Other observations

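Genes next to the 9 secreted Wnt genes along the chromosomes were also looked up. The nearest gene on the array on each side gave 18 neighbours, of which 15 reached the floor in 1 or both clones. Their log2 ratios of D351 over D16 ran from -1.05 to 0.59 with a median of 0.01, and 0 of the 15 passed 2-fold toward D351, against 10.6% of all genes. Beside Rspo2, the translation initiation factor gene Eif3e measured 435 in D16 and 492 in D351, and the angiopoietin gene Angpt1 was at 18.8 in D16 and below the floor in D351. Beside Sfrp1, Golga7, a gene of a Golgi protein, measured 77.1 and 95.7. The single neighbour at least 2-fold apart was Papss1, a sulfate donor synthesis gene beside Dkk2, at 528 in D16 and 256 in D351. For Frzb, Dkk2 and Wnt4, which have no ratio, and for Wnt5a, whose neighbours were both below the floor, no ratios could be set side by side. The neighbours were chosen after the values of the 9 genes were known, and other genes without a probe set can lie between.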
